A study of Mus musculus with 12 samples.

Results

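The genes described here are the platelet-derived growth factor (PDGF) ligands Pdgfa, Pdgfb, Pdgfc and Pdgfd, the receptors Pdgfra and Pdgfrb, the pericyte and mural cell genes Cspg4, Rgs5 and Acta2, and the Wnt deacylase Notum. These 10 genes were chosen by name from the 37620 genes of the count table, and all 10 were found in it. RNA-seq had been carried out on bone endothelial cells (BECs) of mice whose strain is labelled c57/Bl6 and given as C57BL/6J in the study's methods. The cells were labelled as freshly taken from tibia and purified by their endomucin, which marks capillary endothelium in bone, whereas the methods name the femur too, and which bones were used was not resolved. Female and male mice were used at 2 or 65 weeks, which gave 2-week females, 2-week males, 65-week females and 65-week males with 3 libraries each, 12 in all. No allele, transgene or treatment is given in the labels for any group, and the study's methods state that samples were kept for sequencing by RNA quality. The labels do not say whether a library came from 1 mouse or a pool, so p-values measure the spread between these libraries. Ages were compared within each sex and sexes within each age, and the difference between the sexes in the age effect was tested as an interaction.

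Endothelial cells are known to secrete PDGF-B, which binds the receptor Pdgfrb on pericytes, the mural cells that wrap capillaries, and so recruits them to growing vessels. PDGF-A and PDGF-C bind mainly Pdgfra, a receptor of mesenchymal cells, and PDGF-D binds Pdgfrb. In bone, both receptors are also carried by perivascular and marrow stromal cells. Notum is a secreted enzyme that removes the lipid from Wnt proteins and thereby inactivates them.

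Total counts per library ran from 35012947 to 44569600 at 2 weeks and from 26044743 to 34088694 at 65 weeks. Levels are given as CPM, which are counts scaled by the library total, or as RPKM, which is CPM per kilobase of exon, where genes are compared with each other. The levels of 20 endothelial marker genes were set beside the label. Their summed level was between 4011 and 7370 CPM in the 2-week libraries and between 271 and 391 CPM in the 65-week libraries, with no marker at 0 in any group, and all 20 were lower at 65 weeks in both sexes. Emcn, the gene of endomucin, fell with them (females, 147 to 5.0 CPM, and males, 197 to 5.64 CPM). Markers of other cells moved as well. The summed level of 15 stromal markers was 11203 to 16275 CPM at 2 weeks and 1048 to 1754 CPM at 65 weeks, and that of 7 B cell markers was 460 to 689 CPM and 7121 to 18755 CPM. That of 10 neutrophil markers was 4137 to 6511 CPM and 12591 to 27256 CPM. For 6 erythroid markers it was 13956 to 26938 CPM and 14782 to 24007 CPM. The stromal and erythroid sums were above the endothelial sum in every 2-week library. At 65 weeks the stromal, B cell, neutrophil and erythroid sums all were. The lists differ in gene number, so these sums do not measure shares of cells. Of the lists for osteoblasts, chondrocytes, megakaryocytes and osteoclasts, 8 of 8, 10 of 11, 9 of 9 and 6 of 7 tested genes were lower at 65 weeks in females, and 8, 10, 9 and 5 in males. Of those for neutrophils, monocytes and macrophages, plasma cells, and T and NK cells, 9 of 10, 7 of 8, 3 of 4 and 6 of 6 tested genes were higher in females, and 10, 6, 3 and 5 in males. Against these directions, 1 osteoclast gene was higher in males and 1 plasma cell gene was lower in each sex. Between the sexes at 65 weeks, the filter on low counts saw 65-week levels only. There 3 chondrocyte, 6 osteoclast and 19 endothelial genes were tested, and all 8 osteoblast and 9 megakaryocyte genes. The other chondrocyte, osteoclast and endothelial genes called lower passed the filter through their 2-week level, so their calls are a description. Erythroid markers were higher for 1 of 6 in each sex, and skeletal muscle markers were lower for 1 of 7 in females and 1 of 6 in males. By the same test, described below, 29.5% and 28.5% of all genes tested were lower in females and males, and 30.2% and 27% higher. The part of these other cells in the values below was not tested. Male 65-week replicate 3 held 117 counts of Xist, 3.35% of the mean level of 65-week females, and female 2-week replicate 3 held 25 counts of Y genes, 0.471% of the male level. How the values of the 10 genes moved without these 2 libraries is given below.

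In females, 9 of the 10 genes were lower at 65 than at 2 weeks, all but Pdgfc, and in males 8 were lower, all but Pdgfa and Pdgfc. The receptors, Cspg4 and Notum had the largest decreases, the ligands Pdgfb and Pdgfa and the contractile gene Acta2 smaller ones. These calls came from edgeR's quasi-likelihood test with Benjamini-Hochberg adjustment over all genes tested, at a threshold of 0.05. Of all genes tested, 29.5% were called lower in females and 28.5% in males. The median log2 fold change of the 10 genes was -2.33 in females and -2.83 in males, beside 0.00563 and 0.00797 over all genes tested. Cspg4 and Notum passed the filter on low counts through their 2-week level alone, so their calls are a description, and of the other 8 genes 7 were called lower in females and 6 in males. Every 65-week library was below every 2-week library for 9 of the 10 genes in each sex, as for 41.6% of all genes tested in females and 39.4% in males. A decrease of more than 2 on the log2 scale was called for 6 of the 10 genes in each sex, namely Pdgfd, Pdgfra, Pdgfrb, Cspg4, Rgs5 and Notum, beside 11.4% and 12.5% of all genes tested. In bulk RNA fewer cells of a type and less RNA per cell cannot be told apart. Leaving out female 2-week replicate 3 again gave 9 calls in females, where the log2 fold change was then -1.43 for Pdgfb, -1.18 for Pdgfa, -3.99 for Pdgfrb, -3.56 for Pdgfra and -2.49 for Rgs5. Leaving out male 65-week replicate 3 again gave 8 calls in males, with -1.56 for Pdgfb, -0.23 for Pdgfa, -3.85 for Pdgfrb, -3.54 for Pdgfra and -3.70 for Rgs5.

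**Figure D1:**
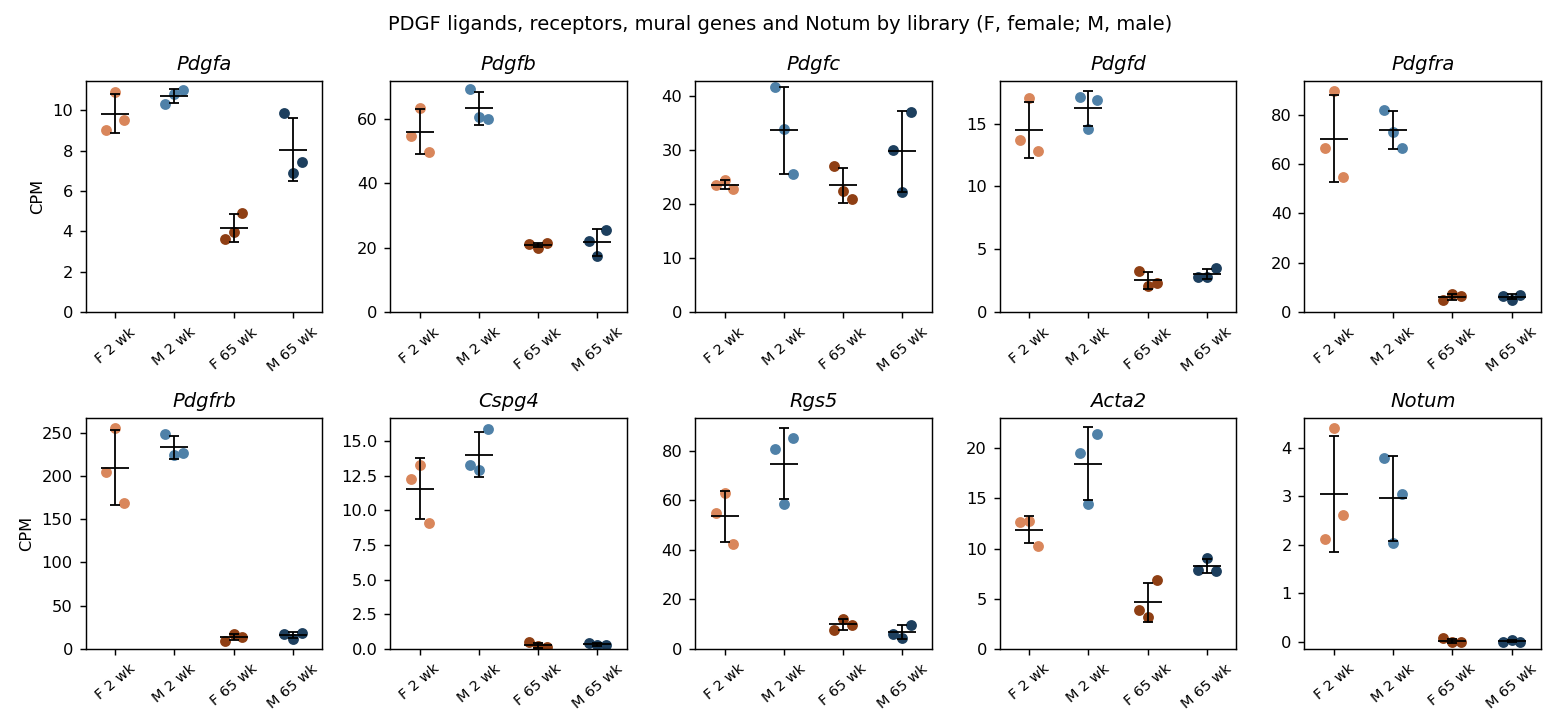
Level in CPM (y axis) of each of the 10 genes in every library (points), with the mean and SD of 3 libraries per group (black), for females (F) and males (M) at 2 and 65 weeks. For 9 genes the 65-week libraries of each sex sit below all 2-week libraries of that sex, whereas those of Pdgfc overlap.

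Pdgfb (ENSMUSG00000000489, GRCm39 chromosome 15, 79880009 to 79899181) encodes the ligand through which endothelium recruits pericytes, and per exon length it was the most abundant of the ligands in every group. It was measured at 54.8, 63.5 and 49.9 CPM in 2-week females and at 69.2, 60.7 and 59.9 CPM in 2-week males. At 65 weeks it was at 21.1, 20.1 and 21.4 CPM in females and at 22.0, 17.4 and 25.6 CPM in males. Both sexes were therefore separated by age with no overlap. The mean fell from 56.1 ± 6.87 to 20.9 ± 0.659 CPM in females (SD, n = 3), a 2.69-fold difference (log2 -1.29 ± 0.0929 SE, edgeR adjusted p = 1.48e-05). In males it fell from 63.3 ± 5.12 to 21.6 ± 4.11 CPM, a 2.92-fold difference (log2 -1.44 ± 0.143 SE, edgeR adjusted p = 0.00011).

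Pdgfd (ENSMUSG00000032006, chromosome 9, 6168240 to 6379265), the other ligand of Pdgfrb, had the largest decrease among the ligands. Its levels were 13.7, 17.0 and 12.8 CPM in 2-week females and 17.1, 14.6 and 16.9 CPM in 2-week males. They were 3.30, 2.05 and 2.29 CPM in 65-week females and 2.82, 2.78 and 3.49 CPM in 65-week males. The highest 65-week library was thus well under the lowest 2-week library. The difference was 5.69-fold in females (log2 -2.37 ± 0.208 SE, edgeR adjusted p = 3.79e-05) and 5.35-fold in males (log2 -2.30 ± 0.157 SE, edgeR adjusted p = 1.63e-05).

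Pdgfa (ENSMUSG00000025856, chromosome 5, 138961758 to 138983435) encodes a ligand of Pdgfra. Its levels at 2 weeks were 9.04, 10.9 and 9.51 CPM in females and 10.3, 10.8 and 11 CPM in males. At 65 weeks they were 3.61, 3.99 and 4.91 CPM in females and 9.84, 6.89 and 7.41 CPM in males. The 65-week male libraries lay between the 65-week females and the 2-week males, overlapping with neither. In females the level was 2.36-fold lower at 65 weeks (log2 -1.10 ± 0.168 SE, edgeR adjusted p = 0.000769). In males the difference of 1.33-fold did not pass the test (log2 -0.29, 95% interval -0.72 to 0.14, edgeR adjusted p = 0.212), and it did so only when male 65-week replicate 1, the highest of that group, was left out (log2 -0.50, edgeR adjusted p = 0.0318). The antisense gene 6330403L08Rik shares exon sequence with Pdgfa and was at 3.78 and 4.25 CPM in 2-week females and males and at 1.92 and 5.99 CPM in 65-week females and males. Whether counting used the strand is not stated, so reads of the pair cannot be told apart.

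Pdgfc (ENSMUSG00000028019, chromosome 3, 80943668 to 81121473), a ligand that is secreted in a latent form, did not pass the test with age in either sex. It was measured at 23.6, 24.5 and 22.8 CPM in 2-week females and at 27.1, 22.5 and 20.9 CPM in 65-week females, so the groups overlapped. In males it was at 41.6, 33.9 and 25.5 CPM at 2 weeks and at 30.1, 22.2 and 37.1 CPM at 65 weeks, again with overlap. The log2 difference was 0.13 in females (95% interval -0.13 to 0.38, edgeR adjusted p = 0.348) and -0.0679 in males (95% interval -0.59 to 0.45, edgeR adjusted p = 0.813). In females this interval did not reach those of Pdgfa, Pdgfb and Pdgfd.

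Per exon length the makeup of the ligand pool also differed with age. Pdgfb made up 66.7 ± 1.17% of the summed RPKM of the 4 ligands in 2-week females and 64.1 ± 1.66% in 2-week males, and 52.8 ± 2.50% and 46.1 ± 0.818% in 65-week females and males (SD, n = 3). The share of Pdgfc was 17.9 ± 1.24% and 21.4 ± 3.25% at 2 weeks and 37.6 ± 3.31% and 39.9 ± 2.32% at 65 weeks. Neither share overlapped between ages in either sex. Pdgfd went from 7.94 ± 0.353% and 7.59 ± 0.856% to 2.95 ± 0.598% and 3.01 ± 0.400%. The share of Pdgfa overlapped between ages in females, at 7.37 ± 0.448% and 6.66 ± 1.27%. In males it was higher at 65 weeks with no overlap, at 6.87 ± 0.903% and 10.9 ± 2.26%. The summed ligand level was 19.8 ± 2.10 and 23.3 ± 2.34 RPKM at 2 weeks and 9.31 ± 0.513 and 11.1 ± 2.18 RPKM at 65 weeks. These shares describe the libraries and were not tested. Without female 2-week replicate 3 the shares of Pdgfb and Pdgfc were 67.4% and 17.4% in 2-week females, and without male 65-week replicate 3 they were 46.1% and 38.6% in 65-week males.

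Pdgfrb (ENSMUSG00000024620, chromosome 18, 61178212 to 61218133) encodes the receptor of pericytes and was the most abundant of the 10 genes per exon length at 2 weeks. Its 2-week levels were 205, 255 and 169 CPM in females and 248, 224 and 227 CPM in males. At 65 weeks they were 9.67, 17.0 and 14.4 CPM in females and 17.6, 11.9 and 18.2 CPM in males. No 65-week library came near the 2-week range. The decrease was 15.3-fold in females, from 210 ± 43.0 to 13.7 ± 3.72 CPM (SD, n = 3; log2 -3.79 ± 0.231 SE, edgeR adjusted p = 7.08e-06). In males it was 14.7-fold, from 233 ± 13.1 to 15.9 ± 3.5 CPM (log2 -3.76 ± 0.175 SE, edgeR adjusted p = 3.03e-06).

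Pdgfra (ENSMUSG00000029231, chromosome 5, 75311994 to 75358876), the receptor of PDGF-A and PDGF-C, is a marker of mesenchymal and stromal cells. It was at 66.6, 89.4 and 54.8 CPM in 2-week females and 81.8, 72.8 and 66.4 CPM in 2-week males. The 65-week levels were 4.89, 7.30 and 6.62 CPM in females and 6.51, 5.07 and 7.06 CPM in males. The ages again did not overlap, by a wide margin. The decrease was 11.2-fold in females (log2 -3.34 ± 0.209 SE, edgeR adjusted p = 8.03e-06) and 11.8-fold in males (log2 -3.45 ± 0.154 SE, edgeR adjusted p = 2.46e-06).

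Relative to the ligands, the receptors were lower at 65 weeks. Summed receptor over summed ligand RPKM was 1.59 ± 0.173 in 2-week females and 1.5 ± 0.0611 in 2-week males, and 0.239 ± 0.0718 and 0.223 ± 0.0121 in 65-week females and males (SD, n = 3). For the pair that acts between endothelium and pericytes, Pdgfrb over Pdgfb was 1.95 ± 0.165 and 1.93 ± 0.0515 at 2 weeks and 0.346 ± 0.102 and 0.384 ± 0.0326 at 65 weeks. For Pdgfra over Pdgfc the ratio was 1.61 ± 0.346 and 1.22 ± 0.180 at 2 weeks and 0.149 ± 0.0439 and 0.115 ± 0.0106 at 65 weeks. Within each age the sexes overlapped for Pdgfrb over Pdgfb, and the ages did not overlap for any of these ratios. The ratio of the receptors to each other moved less, with Pdgfrb over Pdgfra at 4.57 ± 0.205 and 4.82 ± 0.320 at 2 weeks and 3.28 ± 0.267 and 3.86 ± 0.283 at 65 weeks. With female 2-week replicate 3 left out, the summed receptor ratio of 2-week females was 1.68 and that of Pdgfrb over Pdgfb 2.03. With male 65-week replicate 3 left out, those of 65-week males were 0.226 and 0.389.

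**Figure D2:**
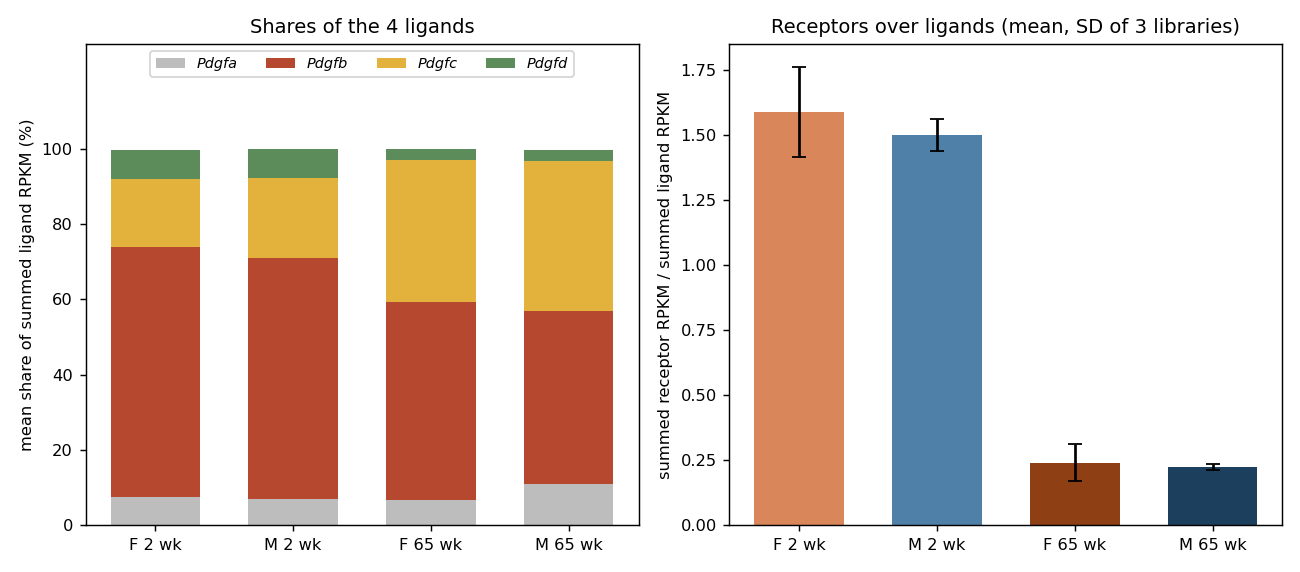
Left, mean share of each ligand in the summed ligand RPKM (y axis, percent) in the 4 groups. Right, summed RPKM of Pdgfra and Pdgfrb over that of the 4 ligands (bars, mean; error bars, SD of 3 libraries), which was 1.59 and 1.5 at 2 weeks and 0.239 and 0.223 at 65 weeks.

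Among the mural genes, Cspg4 (ENSMUSG00000032911, chromosome 9, 56772317 to 56807187), which encodes the NG2 proteoglycan of the pericyte surface, was at the edge of detection at 65 weeks. It was measured at 12.3, 13.3 and 9.11 CPM in 2-week females and at 13.3, 12.9 and 15.9 CPM in 2-week males. At 65 weeks it was at 0.482, 0.205 and 0.136 CPM in females, which were 14, 7 and 4 counts, and at 0.439, 0.259 and 0.307 CPM in males, which were 12, 7 and 8 counts. Every library of the older mice thus held a few reads of it. The decrease was 42.2-fold in females (log2 -5.26 ± 0.364 SE, edgeR adjusted p = 1.26e-05) and 41.8-fold in males (log2 -5.25 ± 0.251 SE, edgeR adjusted p = 3.37e-06). In females it was larger without 65-week replicate 1, the library with 14 counts (log2 -5.90, edgeR adjusted p = 2.16e-05). With each library left out in turn, the log2 value ranged from -5.90 to -4.96 in females and from -5.53 to -5.11 in males. Since the filter let Cspg4 through by its 2-week level, these p-values are a description.

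Rgs5 (ENSMUSG00000026678, chromosome 1, 169483036 to 169524887) encodes a regulator of G protein signalling that is abundant in pericytes. Its levels were 55.1, 63.0 and 42.4 CPM in 2-week females and 80.8, 58.4 and 85.1 CPM in 2-week males. In the older mice they were 7.78, 12.2 and 9.86 CPM in females and 6.19, 4.33 and 9.79 CPM in males. The sexes overlapped at both ages, with the mean of the males above that of the females at 2 weeks and below it at 65 weeks. The decrease with age was 5.38-fold in females (log2 -2.28 ± 0.191 SE, edgeR adjusted p = 2.97e-05) and 11-fold in males (log2 -3.36 ± 0.282 SE, edgeR adjusted p = 4.56e-05).

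Acta2 (ENSMUSG00000035783, chromosome 19, 34217737 to 34232990) encodes smooth muscle actin, a contractile protein of arterial smooth muscle and of some pericytes. It was at 12.6, 12.7 and 10.3 CPM in 2-week females and 19.5, 14.4 and 21.4 CPM in 2-week males, and the 65-week levels were 3.86, 3.23 and 6.86 CPM in females and 7.91, 9.08 and 7.79 CPM in males. At each age every male library was above every female library. The decrease was 2.55-fold in females (log2 -1.22 ± 0.268 SE, edgeR adjusted p = 0.00495) and 2.23-fold in males (log2 -1.04 ± 0.180 SE, edgeR adjusted p = 0.00193), less than for the other mural genes. Stambpl1 on the opposite strand shares exon sequence with Acta2 and was between 10.4 and 11.6 CPM in all 4 groups. Reads of this pair cannot be told apart either, for the same reason.

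Notum (ENSMUSG00000042988, chromosome 11, 120541446 to 120552019), the Wnt deacylase, was per exon length the least abundant of the 10 genes in every group. At 2 weeks it was measured at 2.12, 4.4 and 2.61 CPM in females and at 3.79, 2.03 and 3.05 CPM in males, or 78 to 154 counts and 85 to 169 counts. At 65 weeks the 3 female libraries held 2, 0 and 0 counts and the 3 male libraries 0, 1 and 0. The summed counts were 332 against 2 in females, a ratio of 139 per total count (95% counting interval 38.3 to 1156), and 365 against 1 in males, a ratio of 239 (95% counting interval 42.6 to 9469). These intervals hold counting error alone, because counts were summed over the 3 libraries of a group and the spread between libraries does not enter. The reads also carried no molecular identifiers and may repeat molecules. As a description, since Notum too passed the filter through its 2-week level, edgeR's adjusted p was 0.000116 in females and 7.88e-05 in males. The fitted log2 values of -6.77 and -7.42 depend on the prior count, and they became -9.67 without female 65-week replicate 1 and -9.68 without male 65-week replicate 2, the libraries that held the last counts. The antisense gene Notumos, which shares exon sequence with Notum, was at 0.167 and 0.127 CPM in 2-week females and males and at 0 and 0.0610 CPM in 65-week females and males.

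**Figure D3:**
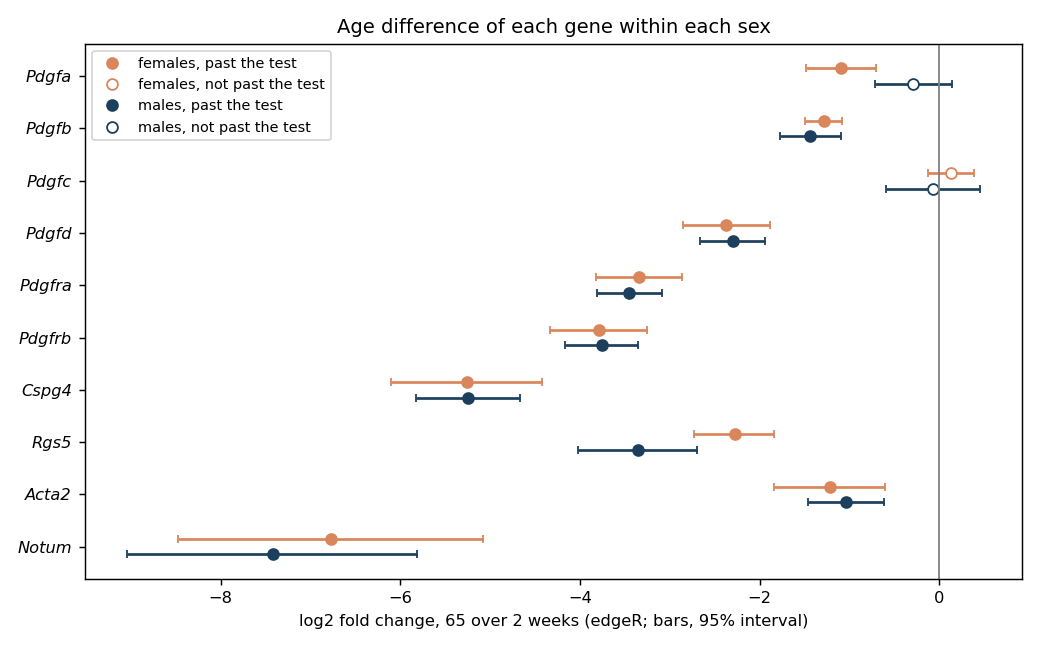
Log2 fold change from edgeR, 65 over 2 weeks (x axis), with its 95% interval, for each of the 10 genes in females and males. Filled points passed the test and open points did not (Pdgfc in both sexes and Pdgfa in males), and the fitted values of Notum at -6.77 and -7.42 depend on the prior count.

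Per exon length the order of the 10 genes changed with age. At 2 weeks Pdgfrb led with 25.9 ± 5.32 RPKM in females and 28.8 ± 1.62 RPKM in males, ahead of Pdgfb with 13.2 ± 1.62 and 14.9 ± 1.20 RPKM and Rgs5 with 8.70 ± 1.69 and 12.2 ± 2.32 RPKM (SD, n = 3). Neither Pdgfrb and Pdgfb nor Pdgfb and Rgs5 overlapped, whereas Rgs5 and Pdgfra overlapped in females but not in males. In both sexes at 2 weeks, Acta2 overlapped with Pdgfc and Pdgfd with Pdgfa in level. At 65 weeks the ligands Pdgfb and Pdgfc led instead, with 4.91 ± 0.155 and 3.51 ± 0.473 RPKM in females and 5.09 ± 0.967 and 4.45 ± 1.11 RPKM in males, and they overlapped in males only. Pdgfrb, Rgs5 and Acta2 followed in females with overlap between neighbours, at 1.69 ± 0.459, 1.62 ± 0.358 and 1.44 ± 0.601 RPKM. In males Acta2 at 2.56 ± 0.220 RPKM was above Pdgfrb at 1.96 ± 0.433 RPKM with no overlap, followed by Pdgfa at 1.19 ± 0.233 RPKM and Rgs5 at 1.10 ± 0.451 RPKM, which overlapped. Cspg4 and Notum were last in all 4 groups.

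Promoter sequences are shown for the 3 mural genes, which were called lower at 65 weeks in both sexes by different amounts, and for Pdgfc, the ligand called in neither sex. In the RefSeq promoter table (GRCm38.p6) 7 of the 10 genes had an entry, and Pdgfb, Pdgfrb and Notum had none. The 250 bases before each gene start were searched on both strands for the CArG box, the 10-base binding motif of serum response factor (CC, then 6 bases of which at least 5 are A or T, then GG), for TATANA, as in a TATA box, and for GGGCGG, a GC box. A CArG box was found in 8.59% of the 32851 windows in the table, TATANA in 22.6% and GGGCGG in 32.7%. Capitals mark the matches in the sequences, which are written 5′ to 3′ on the strand of the gene.
Acta2, chr19:34255374-34255623, minus strand: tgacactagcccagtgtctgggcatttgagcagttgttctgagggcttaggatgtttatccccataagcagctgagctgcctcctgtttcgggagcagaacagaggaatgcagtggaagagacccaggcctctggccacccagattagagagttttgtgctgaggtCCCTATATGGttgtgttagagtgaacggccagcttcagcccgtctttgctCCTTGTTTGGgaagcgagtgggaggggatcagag
Rgs5, chr1:169655251-169655500, plus strand: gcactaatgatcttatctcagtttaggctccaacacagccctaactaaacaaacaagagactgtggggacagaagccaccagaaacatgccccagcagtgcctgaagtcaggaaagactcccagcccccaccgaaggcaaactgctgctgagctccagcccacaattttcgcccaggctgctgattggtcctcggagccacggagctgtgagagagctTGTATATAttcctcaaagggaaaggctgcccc
Cspg4, chr9:56864854-56865103, plus strand: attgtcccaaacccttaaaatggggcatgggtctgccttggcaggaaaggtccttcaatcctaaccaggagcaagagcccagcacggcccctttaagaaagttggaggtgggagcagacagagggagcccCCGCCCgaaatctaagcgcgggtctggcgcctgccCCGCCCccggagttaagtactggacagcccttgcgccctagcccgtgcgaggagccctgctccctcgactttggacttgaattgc
Pdgfc, chr3:81036166-81036415, plus strand: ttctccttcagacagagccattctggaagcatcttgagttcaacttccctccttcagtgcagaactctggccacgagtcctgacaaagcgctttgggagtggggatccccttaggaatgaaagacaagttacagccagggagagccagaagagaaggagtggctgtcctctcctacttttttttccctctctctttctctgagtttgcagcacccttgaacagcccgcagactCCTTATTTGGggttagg
Acta2 held 2 CArG boxes, which begin 84 and 34 bases before the gene start, and neither of the other motifs. Pdgfc held 1 CArG box, 17 bases before its start. Rgs5 held 2 overlapping TATANA matches, 32 bases before its start on the opposite strand and 30 bases before it on both strands, and Cspg4 held GGGCGG on the opposite strand at 120 and 85 bases. The 3 mural genes shared none of the searched motifs. Of the others, Pdgfra held none of the motifs, Pdgfd held 2 overlapping TATANA matches at 162 bases on the opposite strand and at 160 bases on its own, and Pdgfa held GGGCGG once in one of its 2 windows and 2 times, on the opposite strand, in the other. A match describes these letters and does not show that a factor binds there.

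The other genes of mural cells were examined with a list of 29 genes, of which 26 were tested with age. In each sex 23 of these were called lower and 2 higher, with a median log2 fold change of -3.02 in females and -3.29 in males. Over all genes tested, 29.5% and 28.5% were called lower in females and males, and 30.2% and 27% higher. The filter was passed at 65 weeks by 21 of the 26 genes, of which 18 were lower in each sex, and the other 5 passed it through their 2-week level. The summed level of the list was 1328 to 2073 CPM in the 2-week libraries and 143 to 211 CPM in the 65-week libraries. Abcc9, the regulatory subunit of a potassium channel of pericytes, had the highest mean CPM over the 12 libraries, which its 2-week level set, at 462 ± 147 and 566 ± 60.7 CPM in 2-week females and males and 16 ± 2.39 and 16 ± 3.53 CPM at 65 weeks (SD, n = 3; log2 -4.71 and -5.04, edgeR adjusted p = 3.62e-06 and 1.22e-06). It had the lowest fitted fold change of the list in males, and Mcam, a cell adhesion molecule of pericytes and endothelium, had it in females, from 134 ± 30.4 to 2.93 ± 1.2 CPM (log2 -5.39, edgeR adjusted p = 4.13e-06). Mylk and Myl9, a kinase and a light chain of myosin in contractile cells, also fell, with log2 fold changes of -2.6 and -3.77 in females and of -2.7 and -3.58 in males. The largest rise in males was that of Anpep, an aminopeptidase found on pericytes and also on myeloid cells, from 11 ± 0.773 to 58.6 ± 24.8 CPM (log2 2.54, edgeR adjusted p = 0.000298). In females it was that of Vtn, the gene of vitronectin, at the low level of 0.211 ± 0.120 CPM at 2 weeks and 1.52 ± 0.460 CPM at 65 weeks (log2 2.97, edgeR adjusted p = 0.00112). Vtn passed the filter through its 65-week level alone, so this call is a description, and in males Vtn was not tested. With genes of mean CPM under 1 left out, 1 gene of the list was called higher in each sex, and without male 2-week replicate 1 it was also 1 in males.

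Genes that process PDGF ligands or carry the signal of their receptors were called in both directions. Of 26 listed, 24 were tested with age, of which 13 were lower and 8 higher in females and 12 were lower and 4 higher in males, with medians of -0.32 and -0.45 on the log2 scale. These are 8 higher calls of 24 beside 30.2% of all genes tested in females and 4 of 24 beside 27% in males, and the lower ones stand beside the 29.5% and 28.5% given above. Of the 22 genes that passed the filter at 65 weeks as well, 11 were lower in females and 10 in males. The 4 higher calls in males became 1 with library totals alone or with male 2-week replicate 3 left out, and 2 with male 2-week replicate 2 left out. Sparc, a matrix protein that binds PDGF-B, had the highest mean CPM over the 12 libraries, set by its 2-week level, and in females it fell from 3484 ± 816 to 88.4 ± 10.6 CPM, in males from 4264 ± 488 to 108 ± 8.62 CPM (SD, n = 3; log2 -5.16 and -5.19, edgeR adjusted p = 1.64e-06 and 9.63e-07). Lrp1, a receptor that associates with Pdgfrb, did not pass the test, at 393 ± 81.6 and 415 ± 60.8 CPM in females of 2 and 65 weeks and 381 ± 104 and 349 ± 85.2 CPM in males. Grb2, an adaptor of activated receptors, rose in females and males (log2 0.86 and 0.85), and Ptpn11, a phosphatase that takes part in the same signal, fell (log2 -0.51 and -0.63). Ptprj, a phosphatase that acts on Pdgfrb, had the largest rise in females (log2 0.97, edgeR adjusted p = 0.000236) and did not pass the test in males (log2 0.28, edgeR adjusted p = 0.203). Its difference between the sexes was not called either (interaction log2 -0.69, edgeR adjusted p = 0.254). Pdgfrl, a receptor-like gene, had the lowest fitted value in females, with 248 counts over the 3 libraries at 2 weeks and 3 at 65 weeks, a ratio of 69.5 per total count (95% counting interval 23.5 to 339). Its log2 fold change of -5.83 became -9.24 without female 65-week replicate 1 and -5.24 without female 65-week replicate 2. Plat, the tissue plasminogen activator that cleaves PDGF-C, had the lowest fitted value in males, from 1608 counts over the 3 libraries at 2 weeks to 0 at 65 weeks, so it was at least 351-fold lower against a floor of 3 counts over the group. Pdgfrl and Plat passed the filter through their 2-week level alone, so their calls are a description.

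Notum was set beside the other secreted or membrane inhibitors of Wnt signalling. Of 16 listed, 13 were tested, and 11 were lower in each sex, with medians of -3.10 in females and -3.18 in males on the log2 scale that were the same with genes at 0 set to their bound. Beside these calls, 29.5% and 28.5% of all genes tested were lower in females and males, and 30.2% and 27% higher. Of the 10 that passed the filter at 65 weeks as well, 8 were lower in each sex. Wif1, which binds Wnt proteins, had the highest mean CPM over the 12 libraries, set by its 2-week level, and in females fell from 148 ± 34.2 to 2.35 ± 0.975 CPM, in males from 195 ± 38.6 to 3.67 ± 0.921 CPM (SD, n = 3; log2 -5.84 and -5.62, edgeR adjusted p = 3.62e-06 and 1.54e-06). The frizzled-related proteins Sfrp4 and Sfrp1 fell, with log2 fold changes of -1.82 and -3.02 in females and -1.67 and -3.06 in males, as did Kremen1, a receptor of the Dkk proteins (log2 -1.03 and -0.95). Dkk1, an antagonist of the Wnt co-receptors, had the lowest fitted value in females, where it went from 97 counts over the 3 libraries to 0, at least 27.2-fold lower against the floor. Dkk2 had it in males, from 210 counts to 0, at least 45.9-fold lower. Dkk1 and Dkk2 passed the filter through their 2-week level alone, so their calls are a description. Fitted values over a group at 0 depend on the prior count, so these do not show that the decreases exceeded that of Wif1. Rnf43, a ubiquitin ligase that removes frizzled receptors, was the only one called higher, in females (log2 0.76, edgeR adjusted p = 0.029), and 0 genes of the list were called higher with library totals alone or without female 2-week replicate 1, female 2-week replicate 2 or female 65-week replicate 3.

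Of 12 genes of Wnt secretion, response and binding, 11 were tested, of which 8 were lower in females and 9 in males and none higher, with medians of -1.77 and -1.76 on the log2 scale. These calls stand beside the same shares of all genes tested, 29.5% and 28.5% lower and 30.2% and 27% higher. Of the 10 that passed the filter at 65 weeks as well, 7 were lower in females and 8 in males. Wls, which carries Wnt proteins to the surface, fell in females from 108 ± 18 to 49.7 ± 1.09 CPM and in males from 140 ± 10.6 to 46.8 ± 5.35 CPM (SD, n = 3; log2 -0.99 and -1.46, edgeR adjusted p = 0.000123 and 1.90e-05). The glypicans Gpc6 and Gpc4 fell, with log2 fold changes of -4.12 and -0.97 in females and -4.23 and -1.57 in males. Another glypican, Gpc3, had the lowest fitted fold change of the list in both sexes. It passed the filter through its 2-week level alone, so its calls are a description. In females it went from 604 counts over the 3 libraries to 2, a ratio of 254 per total count (95% counting interval 69.9 to 2100), and its fitted log2 of -7.64 was -10.53 without female 65-week replicate 1. In males it was at 6.38 ± 1.55 CPM at 2 weeks and 0.276 ± 0.208 CPM at 65 weeks. Tcf7, a transcription factor of the pathway, did not pass the test in females (log2 -0.41, edgeR adjusted p = 0.145) or in males (log2 -0.49, edgeR adjusted p = 0.0728).

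**Figure D4:**
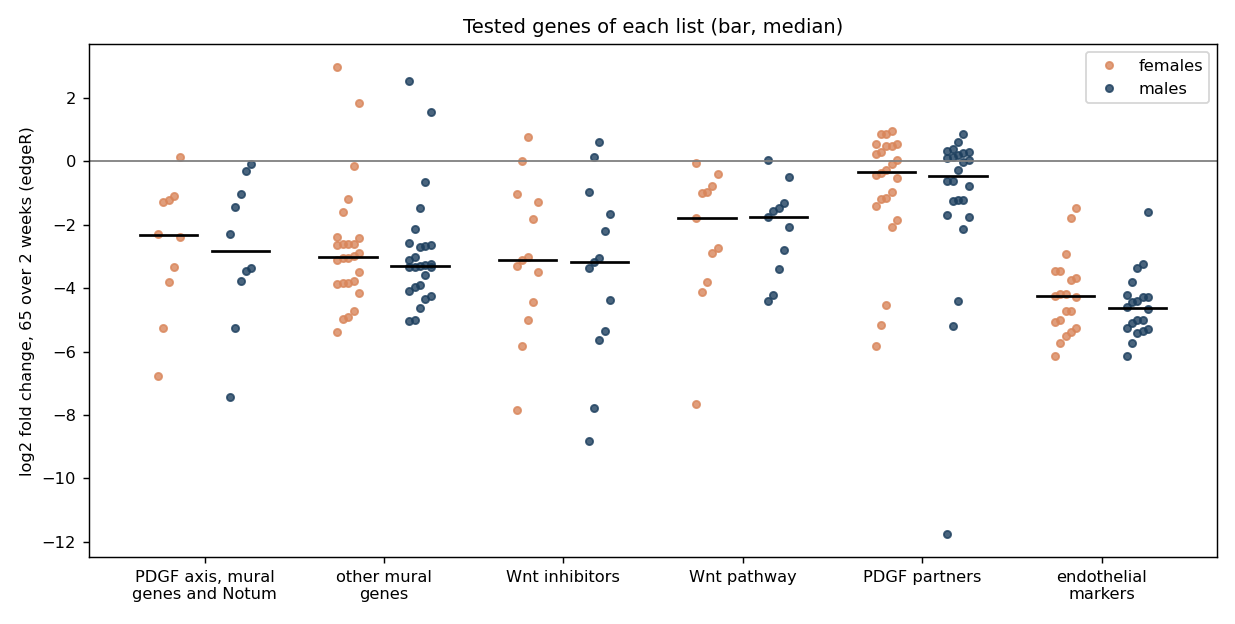
Log2 fold change from edgeR, 65 over 2 weeks (y axis), of each tested gene (points) of the 10 genes, of 4 related lists and of the endothelial markers, in females and males, with the median of each list (bars). The medians of the mural list were -3.02 and -3.29 and those of the endothelial markers -4.26 and -4.62, and genes at 0 at 65 weeks are drawn at fitted values that depend on the prior count.

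Since the endothelial markers fell as well, each gene was also expressed per 100 CPM of their summed level, as a description with no test. On this scale 7 genes were higher in every 65-week library than in every 2-week library of the same sex, namely the 4 ligands, Pdgfra, Rgs5 and Acta2. Pdgfb went from 1.06 ± 0.169 to 6.15 ± 0.943 in females and from 0.944 ± 0.0981 to 6.98 ± 0.507 in males (SD, n = 3), or by 2.54 and 2.89 on the log2 scale. Pdgfc went from 0.452 ± 0.109 to 6.90 ± 1.16 and from 0.503 ± 0.124 to 9.56 ± 1.18, the largest log2 ratios of the 10 genes, 3.93 and 4.25. Pdgfra was higher by 0.50 in females and 0.87 in males on the log2 scale, with no overlap. Pdgfrb moved with the endothelial markers in females, at 3.89 ± 0.285 and 3.98 ± 0.967 with overlap between ages, and was at 3.48 ± 0.337 and 5.13 ± 0.780 in males with no overlap. Cspg4 and Notum remained lower in every 65-week library, Cspg4 with log2 ratios of -1.42 and -0.93 and Notum at 0.0559 ± 0.0146 and 0.00684 ± 0.0119 in females and 0.0432 ± 0.00821 and 0.00456 ± 0.00791 in males. Left out in turn, female 2-week replicate 3 and male 65-week replicate 3 moved the group means on this scale to between 0.866 and 0.972 times and between 0.862 and 1.5 times their value, and no mean moved by more than 1 SD.

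**Figure D5:**
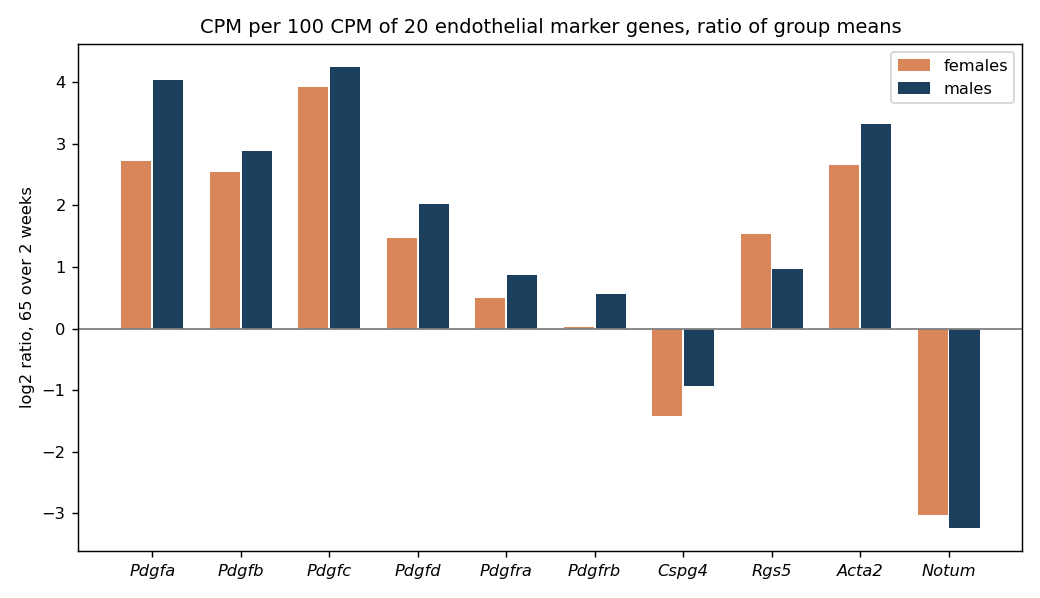
Log2 ratio, 65 over 2 weeks (y axis), of the group means of CPM per 100 CPM of the 20 endothelial marker genes, for each of the 10 genes in females and males. Pdgfc had the highest ratios (3.93 and 4.25), Pdgfrb was near 0 in females (0.03), and Cspg4 and Notum were below 0. Because the marker level fell with age, a gene of unchanged CPM lies above 0.

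Between sexes, no gene of the 10 was called. At 2 weeks 0 of 10 passed edgeR's quasi-likelihood test, as did 0.0332% of all genes tested, and 3 had an unadjusted p under 0.05, while DESeq2 called 1. These 3 were Acta2, with a mean of 11.9 ± 1.31 CPM in females against 18.4 ± 3.59 CPM in males (SD, n = 3; log2 0.62 ± 0.147 SE, edgeR adjusted p = 0.213), Pdgfc (log2 0.50 ± 0.162 SE, edgeR adjusted p = 0.231) and Rgs5 (log2 0.47 ± 0.164 SE, edgeR adjusted p = 0.24). All 3 male libraries were above the 3 female libraries for Acta2 and Pdgfc, and the sexes overlapped for Rgs5. DESeq2 called Acta2 (log2 0.61, DESeq2 adjusted p = 0.0155). For Pdgfb the log2 difference, male over female, was 0.16 with a 95% interval from -0.06 to 0.38, and for Pdgfrb it was 0.14 with one from -0.16 to 0.44. In 2-week females replicate 2 had the highest CPM for 10 of the 10 genes and replicate 3 the lowest for 8. This order was not particular to them. The summed endothelial and stromal markers were also highest in replicate 2 (6934 and 16275 CPM) and lowest in replicate 3 (4011 and 11203 CPM). Other lists had other orders, and the neutrophil and erythroid sums were lowest in replicate 2 (5208 and 16705 CPM).

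At 65 weeks 8 of the 10 genes were tested between sexes, since Cspg4 and Notum did not pass the filter on low counts. None was called by edgeR, as for all but 0.042% of the genes tested, and 2 had an unadjusted p under 0.05. The mean of Pdgfa was 4.17 ± 0.668 CPM in females against 8.05 ± 1.58 CPM in males (SD, n = 3), with every male library higher (log2 0.94 ± 0.239 SE, edgeR adjusted p = 0.22). DESeq2 called it (adjusted p = 0.0265), and so did edgeR with all 12 libraries in 1 model (adjusted p = 0.0311). Acta2 was again higher in every male library, with 4.65 ± 1.94 CPM in females against 8.26 ± 0.71 CPM in males (log2 0.82 ± 0.295 SE, edgeR adjusted p = 0.381). For Pdgfb the log2 difference was 0.0353 with a 95% interval from -0.30 to 0.37, and for Pdgfrb 0.20 with one from -0.36 to 0.76. Without male 65-week replicate 3 there were again no calls among the 10 genes, although the calls over all genes went from 6 to 830.

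A difference between sexes in the age effect was called for 0 of the 10 genes by edgeR's test of the interaction in all 12 libraries, which called 0.00635% of the genes tested. DESeq2 also called 0 of the 10, and with edgeR 2 had an unadjusted p under 0.05. These were Rgs5, whose decrease was larger in males (log2 -1.07 ± 0.359 SE, edgeR adjusted p = 0.272), and Pdgfa, whose decrease was larger in females (log2 0.81 ± 0.248 SE, edgeR adjusted p = 0.238). Without male 65-week replicate 3, which had the highest Rgs5 level of its group, the interaction of Rgs5 was called (log2 -1.37, edgeR adjusted p = 0.0381), while over all genes the calls went from 1 to 750. For the receptors the intervals of the difference were from -0.60 to 0.69 on the log2 scale for Pdgfrb and from -0.70 to 0.50 for Pdgfra, and for Pdgfb from -0.54 to 0.25.

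The genes with the most similar profiles over the 12 libraries were found from the root mean square difference of centred log2(CPM + 0.5) among 13494 protein-coding genes tested with age in both sexes. Nearest to Pdgfb were Rcn2, Scamp5 and Mxd4, with differences of 0.0840, 0.0930 and 0.0990, where the median gene was at 0.742. Rcn2 was at 59.8 and 73.7 CPM in 2-week females and males and 22.9 and 23.5 CPM at 65 weeks. Nearest to Pdgfrb were Lox, Agt and Sema3a at 0.111, 0.113 and 0.136, where the median gene was at 1.894. Lox, a lysyl oxidase that crosslinks collagen, was at 181 and 215 CPM at 2 weeks and 14 and 13.4 CPM at 65 weeks. Agt, the gene of angiotensinogen, was at 187 and 228 CPM and at 12.6 and 16.2 CPM. Rgs5 was nearest to Lhx6, Kank3 and Fkbp7, at 0.188, 0.198 and 0.215. Kank3 was at 44.6 and 55.8 CPM at 2 weeks and 6.33 and 5.99 CPM at 65 weeks. Notum was nearest to Tnn, Ehd3 and Tshz2, at 0.183, 0.204 and 0.212, and Tnn, the gene of the matrix protein tenascin-N, went from 382 counts in females and 401 in males to 0 in both, at least 107-fold and 87.6-fold lower against the floor. Ehd3 was at 95.8 and 99.4 CPM at 2 weeks and 15 and 14.2 CPM at 65 weeks. Tshz2 was at 25.6 and 26.8 CPM and at 3.56 and 3.75 CPM. The added 0.5 compresses the decrease of Notum, so Ehd3 and Tshz2 lie near it although their decreases in CPM were smaller in fold. The points share their libraries and the age contrast, so these differences describe profiles and carry no test.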

How the data were processed

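RNA from 12 libraries of cells labelled as purified BECs had been sequenced with paired reads of 100 nt. The deposited file holds the authors' counts per gene, not normalised. The submitters' processing notes name TopHat2, HTSeq and mm9, whereas the study's methods describe STAR, featureCounts and GRCm39, and which of these made the table was not resolved. The kit was for total RNA and the label names polyadenylated RNA, which was not resolved either. Use of strand, annotation release and multimapped reads are not given in the sources used here. Names, positions and exon lengths came from GENCODE M39 (GRCm39) by Ensembl ID, which matched 31052 IDs carrying 99.287% of the counts.

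In R 4.3.3, edgeR 4.0.16 was run on the counts with TMM scaling after filterByExpr (minimum count 10), and its quasi-likelihood F test was adjusted by Benjamini-Hochberg over all genes tested, with a threshold of 0.05. Ages were compared within the 6 libraries of a sex, sexes within the 6 of an age, and the interaction in all 12. Standard errors were taken from the F statistic. CPM used library totals and RPKM union exon lengths. The alternatives were DESeq2 1.42.0, 3 other scalings, other filters, a threshold of 0.01, 1 model of all libraries, thinning, a robust dispersion, the replicate number as a block, and each library left out in turn. Ratios, shares and levels without the 2 libraries that hold transcripts of the other sex were computed as an alternative chosen once the data had been seen. The fitting code was tested on simulated data.

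The 10 genes and all gene lists were chosen with earlier results of these data known. Of a related list the text names the 4 genes with the highest mean CPM and the called genes with the highest and lowest fitted fold change in each age comparison, and for 4 of the 10 genes the 3 nearest profiles. Of the listed genes only Pdgfap1 was not matched. Genes at 0 were set against a floor of 3 counts over the group, which covers counting error only.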

Additional observations from a re-analysis of the deposited data

How the results depend on the processing

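The 9 calls of the 10 genes with age in females and the 8 in males were obtained again, in number and direction, under every alternative run, apart from Pdgfa in males, which was called as well without male 65-week replicate 1 (log2 -0.50). With library totals alone the median of all genes shifted by -0.13 in females and -0.11 in males on the log2 scale, and 5451 of 9119 calls were lower in females (4462 of 9030 with TMM) and 4865 of 8169 in males (4257 of 8298). Between sexes, DESeq2 called 1 of the 10 genes at 2 weeks and 1 at 65 weeks, and the model of all 12 libraries called 1 at 65 weeks, where none was called otherwise; leaving out 1 library gave 0 calls at both ages. For the interaction, leaving out 1 library gave 0 to 1 calls.

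Over all genes, calls between sexes went from 5 to 417 at 2 weeks and from 6 to 363 at 65 weeks with DESeq2, and the interaction from 1 to 353. At 65 weeks they were 254 in the model of all libraries, 105 with no filter, 16 with a robust dispersion and 10 with library totals alone, and leaving out 1 library gave 5 to 830. At 2 weeks they were 8 in the model of all libraries and 5 to 11 without 1 library. The interaction had 7 calls with no filter, 0 at the threshold of 0.01 and 0 to 750 without 1 library. The cause was not tested.

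The labels do not say whether the numbers of the replicates pair the samples. Correlations of same-numbered deviations ran from -0.355 to 0.14, and not every library correlated best with its own number. These values cannot show whether samples were paired. With a replicate block the calls with age were 8269 in females and 7593 in males, with 9 and 8 of the 10 genes among them, and no call of a member changed.

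Directions turned only for differences that were not called. Pdgfc with age in females became -0.0078 with library totals alone, and without 1 library ranged from -0.25 to 0.11 in males. Between sexes, the ranges without 1 library were -0.088 to 0.25 for Pdgfra and -0.27 to 0.28 for Notum at 2 weeks, and -0.064 to 0.17 for Pdgfb and -0.18 to 0.099 for Pdgfra at 65 weeks, where upper-quartile scaling gave 0.0024 for Pdgfra. For the interaction, they were -0.066 to 0.30 for Pdgfd, -0.32 to 0.048 for Pdgfra, -0.15 to 0.23 for Pdgfrb, -0.30 to 0.65 for Cspg4, -0.024 to 0.56 for Acta2 and -2.84 to 2.21 for Notum. With thinned counts the interactions of Cspg4 and Notum were -0.089 and 0.0072, and with the block that of Cspg4 was -7.2e-05. At 65 weeks the counts of Cspg4 and Notum limit what can be shown for them.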
